A study of Sus scrofa and Rattus norvegicus with 8 samples.

Results

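Proteasome subunits and assembly factors were described in subcutaneous fat of pig. They were the genes whose pig symbol begins with PSMA, PSMB, PSMC, PSMD, PSME, PSMF or PSMG followed by a number. Of the 25880 gene IDs in the pig expression table, 14844 were named nuclear genes, and 41 of these were proteasome genes. The pig libraries were made from the upper layer of backfat of adult female Bama pigs aged 2 years, which all belong to 1 group of 6 libraries with no treatment or contrast. The other 2 libraries of the series, from inguinal white adipose tissue of adult female SD rats aged 32 weeks, were not used because their gene IDs are not paired with symbols here. Transcription was measured by RNA-seq after depletion of ribosomal RNA and is given as TPM (a transcript level corrected for length, on the same total in every library). TPM hold no read counts, so the depth is unknown, and the error of each value is the spread between libraries. Since there is 1 group, no test was run and no p-value is given.

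The proteasome is the protease that breaks down most short-lived and damaged proteins of the cell, which are marked for it by chains of ubiquitin. Its barrel-shaped core particle is built of outer rings of alpha subunits, which form the gate, and inner rings of beta subunits, of which PSMB5, PSMB6 and PSMB7 cut peptides. A regulatory particle caps the core: its base holds a ring of ATPases that unfold substrates, and its lid removes the ubiquitin chain. In immune cells, or after interferon, PSMB8, PSMB9 and PSMB10 take the places of PSMB5, PSMB6 and PSMB7 and form the immunoproteasome, which cuts peptides for presentation on MHC class I. In fat cells the proteasome works in protein quality control, and its best known transcriptional regulator there and elsewhere is NFE2L1.

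The pig symbols of RefSeq include 48 proteasome genes. Of these, 44 have an ID in the name table. PSMA6 (an alpha subunit), PSMD2 (a scaffold of the base) and PSMG1 (a chaperone of the core) have an ID that was not among those of the expression table. PSMB5 and PSMB6 (catalytic beta subunits) and PSMG2 and PSMG4 (chaperones of the core) have no ID in the name table. These 7 genes were not analysed here. The 41 genes with a value comprised 6 alpha subunits, 5 constitutive beta subunits, 3 immunoproteasome subunits, 6 ATPases, 2 other base subunits, 8 lid subunits, 3 chaperones of the base, 4 activators, the inhibitor PSMF1, 1 chaperone of the core and 2 tissue-restricted subunits.

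The libraries differed in make-up before any gene was considered. Named nuclear genes held 24.1% to 26.3% of the TPM in replicates 1, 2, 3 and 6, but only 3.34% in replicate 4 and 4.73% in replicate 5. TPM were therefore rescaled so that the named nuclear genes of each library sum to 1000000 (rescaled TPM, used below unless stated). The factor was 3.8 to 4.15 in replicates 1, 2, 3 and 6, 29.9 in replicate 4 and 21.1 in replicate 5. Replicates 4 and 5 are shown apart from the other 4 libraries. That pair is set apart by its make-up and is not a group of the study. A gene is called higher or lower in replicates 4 and 5 where both lay above or below all other 4 libraries in rescaled TPM, and its libraries are otherwise said to overlap. Of the named nuclear genes with a mean of at least 10 rescaled TPM, 12.3% were higher and 48.6% lower by this rule, so being lower was common. In TPM as deposited nearly all genes were lower in that pair, so these directions hold for the rescaled values. Adipocyte markers were high in all 6 libraries. ADIPOQ, the adipokine adiponectin, had 2437 to 3746 rescaled TPM, and FABP4, the fatty acid carrier of fat cells, had 10369.8 to 28926. The measured markers of skeletal muscle, ACTA1 and CKM, together reached at most 8.19, and those of epithelium, KRT18 and EPCAM, at most 15.8, in replicate 4. In bulk tissue, fewer cells of a type and less RNA per cell cannot be told apart.

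Proteasome genes were transcribed throughout. At over 0.1 TPM as deposited, the threshold of the study, 40 of the 41 genes were detected in at least 1 library and 39 in every library. The exceptions were the tissue-restricted subunits. PSMB11, the beta subunit of the thymus, was listed at 0 in all 6 libraries. PSMA8, the alpha subunit of the testis, was listed at 0 in 4 libraries, with 3.07 rescaled TPM in replicate 1 and 0.435 in replicate 5. The other 39 genes had means of at least 10 rescaled TPM, and counts below are over these 39 genes unless stated. Together the 41 genes held 0.352% ± 0.0436 (SD, n = 6) of the TPM of named nuclear genes. The median of the 39 means was 84 rescaled TPM, against 41.2 over the 8866 named nuclear genes that also had a mean of at least 10. Of the 39 genes, 27 lay above that median.

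**Figure D1:**
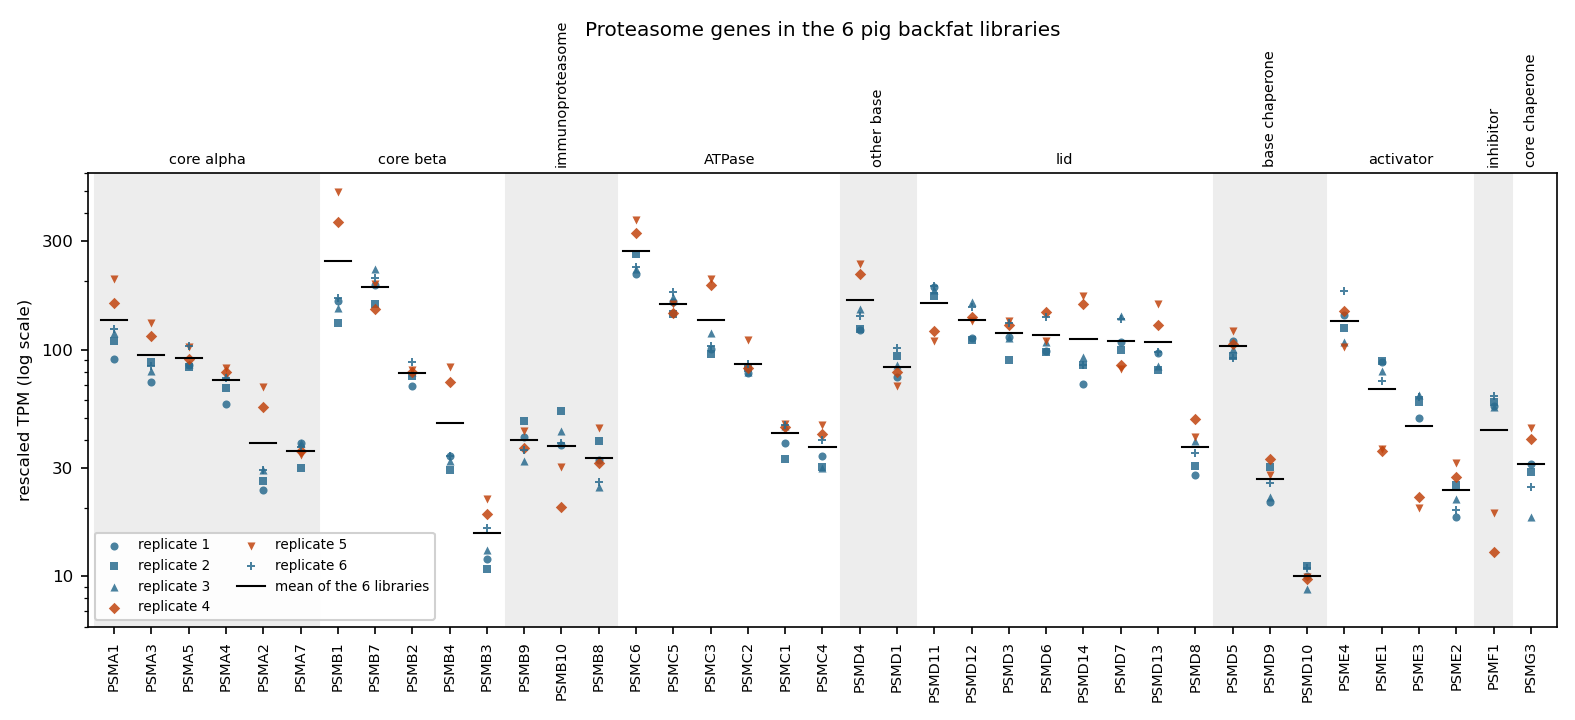
Rescaled TPM on a log scale of the 39 proteasome genes with a mean of at least 10, by class. Each point is 1 of the 6 libraries, with replicates 4 and 5 in orange and the other 4 in blue, and each line is a mean; PSMC6 and PSMB1 are highest and PSMD10 is lowest, and the orange points of PSMB1, PSMB4 and PSMA2 lie above the blue ones while those of PSME1, PSME3 and PSMF1 lie below.

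The alpha subunits differed 3.77-fold between the highest and the lowest mean. PSMA1 was the highest, with 91.1, 109, 119, 161, 206 and 123 rescaled TPM in replicates 1 to 6. PSMA7 was the lowest, with 38.6, 29.9, 38.8, 35.6, 34.2 and 37.3 in the same order. PSMA7 thus varied little between libraries, while the values of PSMA1 in replicates 4 and 5 exceeded all others of that gene. PSMA3, PSMA5 and PSMA4 lay in between, at 95 ± 22.5, 92.1 ± 8.96 and 73.3 ± 9.34 rescaled TPM (SD, n = 6). PSMA2 had 23.9, 26.3, 29.5, 55.6, 68.4 and 29.4 rescaled TPM in replicates 1 to 6, so that its 2 high values were those of replicates 4 and 5.

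The measured constitutive beta subunits spanned a wider range, 15.9-fold between means. PSMB1, a non-catalytic subunit, had 164, 131, 152, 364, 494 and 169 rescaled TPM in replicates 1 to 6, which was the largest relative spread of all 39 genes. PSMB7, which carries the trypsin-like site, had 192, 159, 226, 151, 194 and 207. PSMB3, a non-catalytic subunit and the lowest of the class, had 11.9, 10.7, 13.1, 18.9, 22 and 16.4. For PSMB1 and PSMB3 replicates 4 and 5 were the highest libraries, whereas for PSMB7 replicate 4 was the lowest. PSMB2 was the steadiest of the 39 genes, with 69.2, 76.7, 79.8, 79.6, 81.4 and 88.1 rescaled TPM and overlapping libraries. PSMB4, also non-catalytic, had 34, 29.3, 32.1, 72.3, 83.9 and 34.1, and its values in replicates 4 and 5 were at least 72.3 against at most 34.1 elsewhere.

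Subunits that are present in equal number in the assembled particle therefore did not have equal transcript levels. Over the 27 measured subunits of the constitutive 26S particle (alpha, beta, ATPase, other base and lid), the highest mean was 17.6 times the lowest. Within single libraries this ratio ranged from 14.1 in replicate 6 to 24.6 in replicate 2. Over these 27 subunits, Spearman's rho between the length of the longest RefSeq transcript and the mean level was 0.31. The order of the 39 genes was similar among replicates 1, 2, 3 and 6, with Spearman's rho of 0.967 to 0.976 in the 6 pairs of these libraries, and rho was 0.966 between replicates 4 and 5. Across these sets of libraries it was lower, 0.777 to 0.862 in 8 pairs. Each rho is across genes of the same libraries and is given as a description.

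The immunoproteasome subunits were all transcribed, at levels close to each other. PSMB9 had 41.3, 48.6, 32.2, 36.8, 43.9 and 36.1 rescaled TPM in replicates 1 to 6. PSMB10 had 38.1, 53.7, 43.8, 20.1, 30.3 and 38.7 in the same order. PSMB8 had 32.6, 39.6, 24.7, 31.7, 45.2 and 26.1. Their means of 39.8 ± 5.96, 37.5 ± 11.5 and 33.3 ± 7.85 (SD, n = 6) were close, and the ranges of the 3 genes over the libraries overlapped. PSMB9 and PSMB8 had overlapping libraries, while PSMB10 was lowest in replicates 4 and 5. PSMB8 followed PSMB9 within libraries, with a PSMB8 to PSMB9 ratio of 0.724 to 0.814 in replicates 1, 2, 3 and 6, 0.863 in replicate 4 and 1.03 in replicate 5.

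Transcripts of an immune subunit and of the constitutive one it replaces can be compared here for 1 catalytic pair only, since PSMB5 and PSMB6 were not analysed. A ratio of transcripts does not give the share of the assembled forms, which was not measured. PSMB10 was lower than PSMB7, whose place it takes, in 6 of 6 libraries. The PSMB10 to PSMB7 ratio was 0.199, 0.337, 0.194, 0.134, 0.156 and 0.187 in replicates 1 to 6, with a mean of 0.201 ± 0.071 (SD, n = 6). Replicate 2 was the highest and replicates 4 and 5 were the lowest. In TPM as deposited PSMB10 had only 0.672 and 1.43 in replicates 4 and 5. A ratio within a library does not change with any factor applied to the whole library. The sum of the 3 immunoproteasome subunits over that of the 5 constitutive beta subunits was 0.208 ± 0.0801 (SD, n = 6), a ratio chosen after the values were seen. It was highest in replicate 2, at 0.348, and lowest in replicates 4 and 5, at 0.129 and 0.136. PSMB10 and PSMB7 enter both ratios, so the second does not repeat the first independently. The immunoproteasome sum was 88.6 and 119 rescaled TPM in replicates 4 and 5, against 101 to 142 elsewhere. The constitutive beta sum was 686 and 875 there, against 407 to 514 elsewhere.

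**Figure D2:**
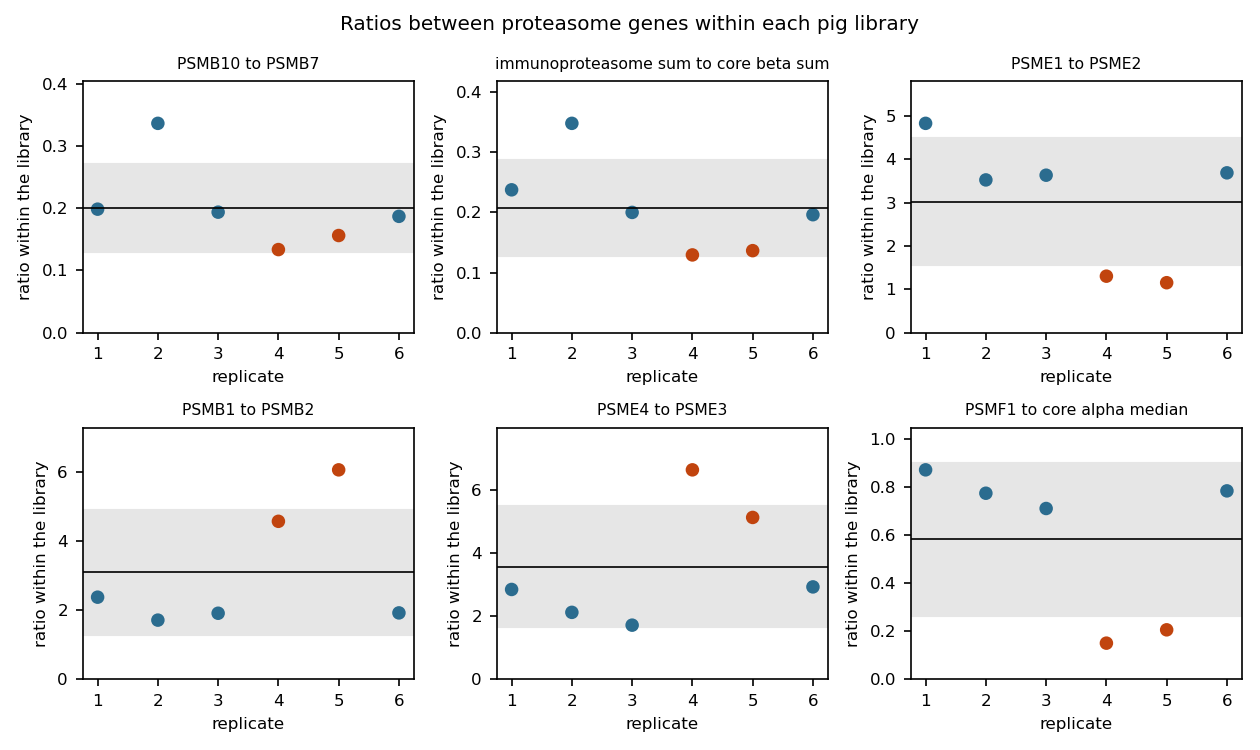
Ratios between proteasome genes within each library (vertical axis, no unit) by replicate (horizontal axis), with the mean (line) and 1 SD on each side (grey band) over 6 libraries. Replicates 4 and 5 are in orange; they are the lowest of the PSMB10 to PSMB7, PSME1 to PSME2 and PSMF1 ratios and the highest of the PSMB1 to PSMB2 and PSME4 to PSME3 ratios, and replicate 2 is the highest for PSMB10 to PSMB7.

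Immune cells carry much of the immunoproteasome, so the markers of these cells are given beside it. All 6 macrophage markers had a value above 0 in every library. Their sum was 459 to 599 rescaled TPM in replicates 1, 2, 3 and 6, 364 in replicate 4 and 215 in replicate 5. Of replicates 1, 2, 3 and 6, replicate 2 had the lowest macrophage sum, 459. The sum of the 8 lymphoid markers was 152 in replicate 2, where the PSMB10 to PSMB7 ratio was highest, 70.5 and 57.1 in replicates 4 and 5, and 78.8 to 107 in the other 3 libraries. Most of that sum was PTPRC, the marker of all white blood cells. The defining B cell marker MS4A1 was at 0.564 to 3.34 and the T cell marker CD3E at 1.27 to 4.51 rescaled TPM. No lymphoid marker was at 0, but CD79B was below 0.1 TPM as deposited, the threshold of the study, in every library. MS4A1 and CD3E were below that threshold in replicates 4 and 5. Measured endothelial markers, 4 of 5, summed to 1322 in replicate 2 and 605 to 1115 in the other 5. Their part in the level of the immunoproteasome was not tested.

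Of the 8 genes of antigen processing and interferon response set beside this class, 7 had a value, and B2M had none. IRF1, a transcription factor of the interferon response, had 27.9 ± 3.02 rescaled TPM (SD, n = 6) with overlapping libraries. TAP1 and TAP2, the subunits of the peptide transporter, had 24.3 ± 4.71 and 20 ± 3.3. TAPBP, which joins that transporter to MHC class I, had 43.7 to 63.1 in replicates 1, 2, 3 and 6 but 10.3 and 11 in replicates 4 and 5. ERAP1, which trims peptides, and NLRC5 and CIITA, the activators of MHC class I and class II genes, were also lowest in replicates 4 and 5, while TAP1 was highest there. Of the 7 genes with a value, 4 were lower and 1 was higher in that pair, beside 48.6% and 12.3% of all genes, so nothing is read from the mix.

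On Sscrofa11.1, the build of the files, PSMB8 and PSMB9 lie within the MHC region of chromosome 7, at chr7:25058456-25061666 (reverse strand) and chr7:25072133-25077508 (forward strand) in the RefSeq annotation. They flank TAP1, which begins 143 bases from the start of PSMB9 on the opposite strand. PSMB10 lies elsewhere, at chr6:28544910-28547609 (reverse strand). The 250 bases before the annotated start of each gene were searched on both strands for GAAANNGAA, the core letters of an interferon response element, since interferon is the known inducer of this class. The letters were found in 3 of 41 proteasome promoters (7.32%), those of PSMB9, PSMB10 and PSMC4, against 6% of 13510 promoters. The matches in PSMB9 and PSMB10 are printed here because these are the interferon-induced genes among the 3, read along the strand of the gene with the matched letters in capitals. The PSMB9 stretch holds a pair of overlapping matches and lies at the annotated 5′ end of TAP1.
PSMB9, chr7:25071964-25071990: ttatggGAAAGGGAAAACGAAagcggc
PSMB10, chr6:28547673-28547693: gaaggtGAAAGTGAAagagga
PSMB10, chr6:28547624-28547644: aaatgtGAAAGCGAAagcagt

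PSMB8, PSME1 and PSME2 held no such match in this window. TTCNNNGAA, the letters of a gamma-activated site, the other interferon motif searched, which can overlap GAAANNGAA, were found in the windows of PSMD3, PSMD4, PSMD12 and PSMD14 (9.76% of 41, against 5.67% of all promoters) and in none of the immunoproteasome, PSME1 or PSME2 windows. TGACNNNGC, the core letters of the antioxidant response element that NFE2L1 and NFE2L2 bind, were found in 2 proteasome promoters (4.88%) against 10.1% of all. These are shown as the only such matches, with that of PSMD14 lying on the strand opposite to the gene.
PSMC5, chr12:15106339-15106359: agctccTGACCTCGCgtggcc
PSMD14, chr15:68107279-68107299: cggcagGCGTTGTCAgtccgg

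A CCAAT box was found in 34.1% of the 41 promoters and 31.8% of all, and a GC box (GGGCGG) in 48.8% and 53.1%. All of these are matches of letters within a fixed window, not measured binding.

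The ATPases of the base differed 7.34-fold between means. PSMC6 had the highest mean of all proteasome genes, with 216, 264, 226, 327, 373 and 231 rescaled TPM in replicates 1 to 6. PSMC4 was the lowest ATPase, with 33.8, 30.3, 30.1, 42.6, 46.5 and 39.8. In both, replicates 4 and 5 were the highest libraries. PSMC5 was among the steadiest genes, with 161, 143, 171, 144, 158 and 179.9 and overlapping libraries. Its gene overlaps FTSJ3 on the opposite strand, and no source used here says whether the quantification used strand. PSMC3, PSMC2 and PSMC1 had 136 ± 49, 86.8 ± 11.8 and 42.9 ± 5.7 rescaled TPM (SD, n = 6), of which PSMC3 was higher in replicates 4 and 5, at 192 and 204, than in the other 4, at 95.3 to 118.

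Of the other base subunits, PSMD4, a receptor for ubiquitin chains, had 122, 123, 151, 215, 239 and 140.3 rescaled TPM in replicates 1 to 6, highest in replicates 4 and 5. PSMD1, a large scaffold, had 75.4, 93.3, 85.2, 79.6, 69.4 and 101, with overlapping libraries. PSMD4 lies on chromosome 4, 156150 bases from PSMB4 on the same strand. Both are among the 14 of 27 measured 26S subunits that were higher in replicates 4 and 5, and a link to position was not tested.

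Among the 8 lid subunits the highest mean was 4.31 times the lowest. PSMD11, a scaffold that helps hold the lid and core together, was the highest, with 189, 172, 182, 121, 109 and 191 rescaled TPM in replicates 1 to 6, and was lowest in replicates 4 and 5. PSMD8 was the lowest of the class, with 28, 30.5, 39.5, 49.5, 41.2 and 35, and was highest in replicates 4 and 5. PSMD14, the deubiquitinase of the lid, and PSMD7, its inactive partner, form a dimer in the particle. They had nearly the same mean, 111 ± 43.3 and 109 ± 25.3 (SD, n = 6), but in rescaled TPM their shifts were opposite. PSMD14 had 70.7, 85.4, 92.6, 159, 173 and 85.2 in replicates 1 to 6, with replicates 4 and 5 at the top. PSMD7 had 108, 99.2, 141, 85.3, 82.4 and 137, with replicates 4 and 5 at the bottom. Relative to the median log2 shift of all genes, given below, PSMD14 was at 1.43 and PSMD7 at -0.09. PSMD7 thus moved nearly as the median gene did. The annotated span of PSMD14 overlaps that of TBR1 on the same strand. PSMD12, PSMD3, PSMD6 and PSMD13 had means of 108 to 135 rescaled TPM. Of these PSMD13 was higher in replicates 4 and 5, and the other 3 had overlapping libraries.

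The chaperones that build the base were present in unequal amounts. PSMD5 had 109, 93.4, 100.2, 106, 121 and 92.1 rescaled TPM in replicates 1 to 6. PSMD9 had 26.8 ± 4.55 (SD, n = 6). PSMD10, also known as gankyrin, had 9.99, 11.1, 8.83, 9.69, 9.94 and 10.8, the lowest mean of the 39 genes, and overlaps ATG4A on the opposite strand. The same kind of overlap holds for PSMA3, PSMA7, PSMC1, PSMD1 and PSMD6. In all 3 genes the libraries overlapped. PSMG3, the only measured chaperone that assembles the alpha ring, had 31.4, 29, 18.2, 40.2, 45.2 and 24.7, with replicates 4 and 5 highest.

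The activators bind the ends of the core in place of, or in competition with, the regulatory particle. PSME1 and PSME2 are the alpha and beta subunits of the interferon-induced activator PA28, in whose ring they sit side by side in near-equal number. PSME1 had 88.5, 89.3, 80.1, 35.6, 36.4 and 72.4 rescaled TPM in replicates 1 to 6. PSME2 had 18.3, 25.3, 22, 27.3, 31.6 and 19.6. The PSME1 to PSME2 ratio, chosen after the values were seen, was 4.83, 3.53, 3.63, 1.3, 1.15 and 3.69. It was thus near equality in replicates 4 and 5 and 3.53 or more in the other 4, where its mean was 3.92 ± 0.612 (SD, n = 4). In TPM as deposited the values behind the ratio in replicates 4 and 5 were low. They were 1.19 and 1.73 for PSME1 and 0.913 and 1.5 for PSME2. The genes are neighbours on chromosome 7, PSME2 at chr7:75154570-75157871 (forward strand) and PSME1 at chr7:75161830-75164531 (reverse strand), 3958 bases apart. PSME1 overlaps EMC9 on the opposite strand.

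PSME4, the large activator PA200 of the nucleus, was the highest of the class, with 142, 124, 107, 148, 102 and 181 rescaled TPM. PSME3, which forms a ring activator of its own in the nucleus, had 50, 58.5, 62.8, 22.3, 19.9 and 61.9. PSMF1, the inhibitor PI31, had 56.3, 58.5, 55.8, 12.8, 19.1 and 62.4. The libraries of PSME4 overlapped, while PSME3 and PSMF1 were far lower in replicates 4 and 5. In TPM as deposited, PSME3 had 0.744 and 0.944 in that pair and PSMF1 had 0.427 and 0.904. Over replicates 1, 2, 3 and 6 PSMF1 was one of the steadiest genes, with a CV (coefficient of variation, the SD divided by the mean) of 0.0515, and over all 6 libraries its CV was 0.5.

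Within libraries these differences appeared as changed proportions between proteasome genes, in ratios chosen after the values were seen. The PSMB1 to PSMB2 ratio was 1.71 to 2.38 in replicates 1, 2, 3 and 6, 4.58 in replicate 4 and 6.07 in replicate 5. The PSME4 to PSME3 ratio was 1.71 to 2.93, 6.64 and 5.13 in the same sets. PSMF1 stood at 0.711 to 0.872 of the median alpha subunit in the first 4 libraries, and at 0.15 and 0.205 in replicates 4 and 5. The summed level of the lid over that of the ATPases was 1.18 to 1.41 in the first 4 libraries and lower, at 1.15 and 1, in replicates 4 and 5.

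Whether the proteasome genes varied less between libraries than all genes depended on the scaling of replicates 4 and 5. In rescaled TPM the median CV over 6 libraries was 0.218 for the 39 genes and 0.21 for the 27 subunits of the constitutive 26S particle, against 0.282 for the 8866 named nuclear genes, and 27 of the 39 lay below this last value. Without replicates 4 and 5 the medians were 0.116, 0.11 and 0.161, and 29 of the 39 lay below the last. After median-centring the order over 6 libraries was reversed, with a median CV of 0.354 for the 39 genes against 0.278 for all genes, and after quantile normalization the medians were 0.255 and 0.25. Without replicates 4 and 5 the proteasome median was the lower one under each of the 5 scalings. The difference was least after median-centring, at 0.159 against 0.166, where 22 of the 39 genes lay below the all-gene median. These comparisons were not matched for level, of which the medians were 84 and 41.2 rescaled TPM. The largest CVs were those of PSMB1 (0.603), PSMB4 (0.503) and PSMF1 (0.5), which came to 0.11, 0.0689 and 0.0515 without that pair. The smallest were those of PSMB2 (0.0779), PSMD10 (0.0826) and PSMC5 (0.0913). The most variable proteasome genes were therefore steady among 4 libraries and set apart by 2. With the pair left out, PSMB8, PSMB9 and PSMB10 had CVs of 0.221, 0.18 and 0.165, above the all-gene median of 0.161, PSMB10 only just. This was not particular to the immunoproteasome, since genes of other classes also lay above it, among them PSME4 (0.228), PSMG3 (0.224) and PSMD12 (0.201).

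**Figure D3:**
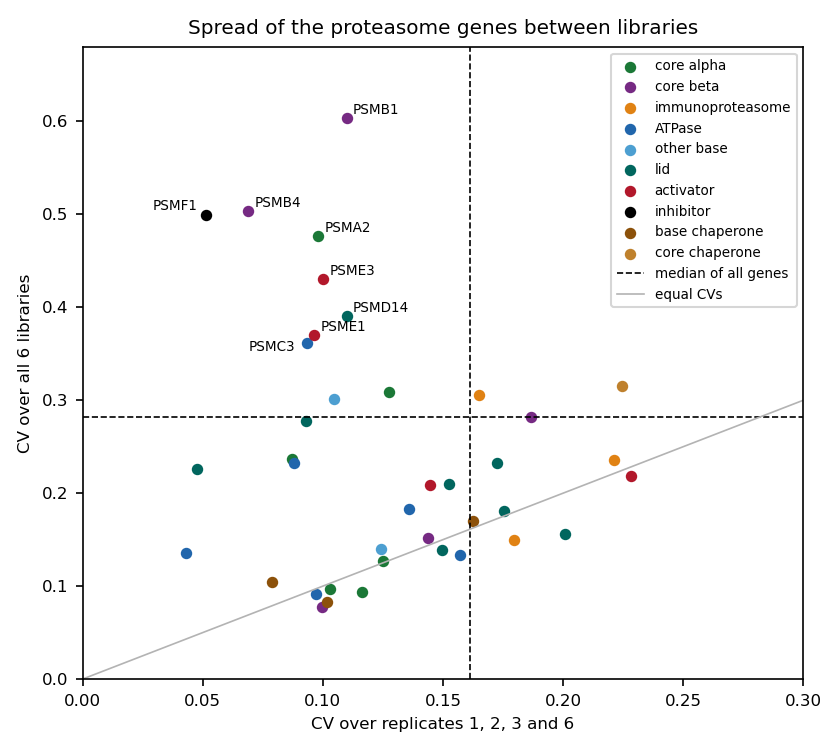
CV over all 6 libraries (vertical axis) against CV over replicates 1, 2, 3 and 6 (horizontal axis) for the 39 proteasome genes, coloured by class, with dashed lines at the medians of all 8866 genes. PSMB1, PSMB4, PSMF1, PSMA2, PSME3, PSMD14, PSME1 and PSMC3 lie far above the line of equal CVs.

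Replicates 4 and 5 both lay above all other libraries for 16 of the 39 genes (41%), against 12.3% of the 8866 genes. They lay below for 6 (15.4%), against 48.6% of the 8866. The other 17 genes overlapped. Of the 27 subunits of the constitutive 26S particle, 14 were higher and 2, PSMD7 and PSMD11, were lower. The remaining lower genes were PSME1, PSME3, PSMF1 and PSMB10. They are 4 of the 8 genes of the activators, the inhibitor and the immunoproteasome (50%), a share close to the 48.6% of all genes. As log2 of the mean of replicates 4 and 5 over that of the other 4 libraries, the median was 0.23 over the 39 genes and -0.44 over all genes. That all-gene shift depends on the scaling, and values are therefore also given relative to it. Relative to it, 33 of the 39 genes lay above, 12 by over 1 on the log2 scale and PSMB1 by the most, 1.92. PSMB4 and PSMA2 followed with 1.71 and 1.63. The 6 genes below it were PSMF1 (-1.43), PSME3 (-1.02), PSME1 (-0.75), PSMB10 (-0.35), PSMD11 (-0.24) and PSMD7 (-0.09).

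The counts moved with the scaling. Median-centring put 31 genes above and 3 below, beside 37.2% and 22.7% of all genes, and quantile normalization put 30 above and 4 below, beside 29.3% and 27% of all genes. In TPM as deposited all 39 were lower in replicates 4 and 5, as were 99.1% of all genes. The position of a gene relative to the all-gene median hardly depends on a factor per library, as which 4 of the 5 scalings act. Under quantile normalization, which is of another kind, 33 of the 39 genes also lay above the all-gene median.

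**Figure D4:**
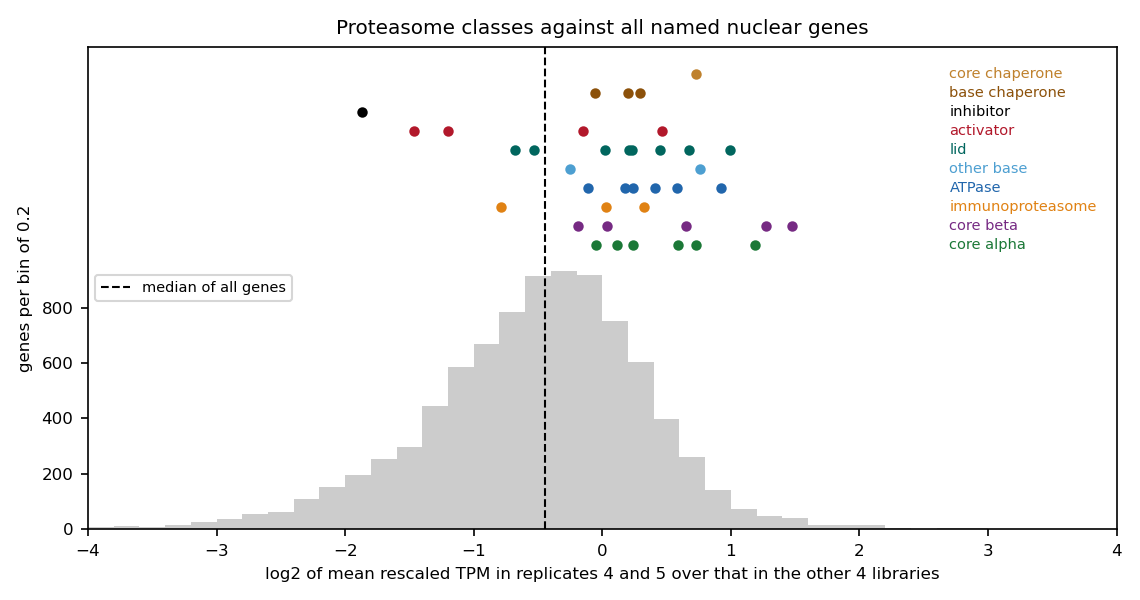
Histogram of the log2 ratio of mean rescaled TPM, replicates 4 and 5 over the other 4 libraries, for named nuclear genes with a mean of at least 10 (24 of 8866 genes fall outside the axis or have no ratio). Points above it are the 39 proteasome genes by class, and the dashed line is the median of all genes, -0.44; core alpha, core beta and ATPase points lie to its right, and the inhibitor and 2 activators to its left.

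Transcript length moved with this shift. The longest RefSeq transcript of the 39 genes had a median of 1555 nt, against 3584 nt over the 8177 genes with a length, and 36 of the 39 were shorter than that. Across genes, Spearman's rho between length and the log2 ratio was -0.34 (n = 8176), and among the proteasome genes it was -0.31 (n = 39). Of the genes under 2000 nt, 28.1% were higher and 29.7% lower in replicates 4 and 5, and of the 28 proteasome genes under that length 15 were higher and 4 lower. Of the 11 longer proteasome genes 1 was higher and 2 were lower, beside 7.29% and 54.9% of all genes of that length. The proteasome genes that were higher and those that were lower had similar median lengths, 1382 and 1432.5 nt. The median GC content was 50.2% over the 39 genes and 49.3% over all. The limit of 2000 nt was chosen after the data were seen, and the part of length in the shift was not tested.

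Other genes of the ubiquitin-proteasome pathway were compared by a list of 23, of which 21 had a value and a mean of at least 10 rescaled TPM. Replicates 4 and 5 were above the other libraries for 4 of the 21 and below for 10, beside the 12.3% and 48.6% of all genes. The share of lower genes was close to that of all genes, so nothing is read from which genes were lower. The 4 were POMP, the maturation factor of the core, ADRM1, a ubiquitin receptor of the base, and the ubiquitin genes UBB and RPS27A. POMP had 105, 149, 135, 152, 196 and 143 rescaled TPM in replicates 1 to 6. UBB, a gene of tandem ubiquitin repeats, had the highest mean of the list, 2942 ± 942 (SD, n = 6). Since UBB and RPS27A share ubiquitin sequence, the split of reads between them is uncertain.

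The 10 lower genes included all 3 measured ubiquilins (UBQLN1, UBQLN2 and UBQLN4) and RAD23B, which shuttle ubiquitinated proteins to the proteasome, the ubiquitin-activating enzyme UBA1, the ligase UBE3C, the proteasome-bound deubiquitinase USP14, the adaptor ECPAS, and AKIRIN2, which brings proteasomes into the nucleus. UBQLN2 had 82.9, 89, 68.1, 22.4, 24.3 and 73.8 rescaled TPM in replicates 1 to 6. The last of the 10 was NFE2L2, with 406 ± 123 (SD, n = 6). NFE2L1, the regulator of proteasome genes, had 213, 238, 349, 297, 207 and 379, with overlapping libraries. NGLY1, which activates NFE2L1, had 83 ± 15.2, and the segregase VCP had 229.7 ± 18.5 with a CV of 0.0807, both with overlapping libraries. The libraries also overlapped for UCHL5, PAAF1, TXNL1 and ZFAND5, and SEM1 and DDI2 had no value.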

How the data were processed

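RNA-seq was analysed in 6 pig libraries (total RNA extracted with an RNeasy kit, ribosomal RNA depleted, stranded TruSeq libraries, Illumina HiSeq X series). The authors computed TPM per gene with Kallisto 0.43.0 and deposited 1 table per species. Per the submitters' processing notes the pig build is Sscrofa11.1, and the annotation release of the table was not found in those sources. Each TPM column of the pig table was matched to 1 library, and 0 columns were left unused. The rat table was not used, since none of its IDs is paired with a symbol. TPM keep no counts, so the depth is unknown and no counting error is given.

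A table of IDs and names supplied symbols (14857 of 25880 IDs, of which 13 were the mitochondrially encoded protein genes, left out of rescaling). TPM of the 14844 named nuclear genes were rescaled to a sum of 1000000 in each library with pandas 2.3.3 and numpy 2.4.6. Spread is given as SD and CV over libraries, and counts and CVs used genes with a mean of at least 10 rescaled TPM. No test was run, because the labels give the pigs 1 group. The labels give separate replicates, which the study's methods describe as 6 individuals. Values in every library were given for PSMB7 to PSMB10, PSME1, PSME2, the highest and lowest mean of each class, and the 3 largest and 3 smallest CVs, and for further genes where a comparison rested on them, which were chosen after their values were seen. Some genes of the lists are not reported here, and list counts leave them out. The members, gene lists and the treatment of replicates 4 and 5 were chosen with earlier results of these data known. Alternatives were 4 other scalings (TPM as deposited, median-centring, quantile normalization, and a total without 50 ribosomal protein genes), other minimum levels, a pseudocount of 1, and leaving out libraries. Positions, transcript lengths and promoter letters came from RefSeq on Sscrofa11.1, matched by symbol for 41 of 41 genes and read with pysam. The code was tested on simulated data.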

Additional observations from a re-analysis of the deposited data

Results flagged for a closer look

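In 3 of 77 sets of 6 values examined (the proteasome genes, their ratios, and the genes of the pathway and antigen lists), 1 library lay far from the other 5, by a gap that chance gives in about 1 in 20 such sets. PSMA8, the alpha subunit of the testis, had 3.07 rescaled TPM in replicate 1 and 0 to 0.435 in the other 5 libraries, and stood out in each of the 4 other scalings. PSMC2, an ATPase of the base, had 110.1 rescaled TPM in replicate 5 and 78.8 to 86.6 in the other 5. Replicate 5 stood out in this gene in 1 of the 4 other scalings. The PSMB10 to PSMB7 ratio was 0.337 in replicate 2 and 0.134 to 0.199 in the other 5 libraries, and replicate 2 stood out in each of the 4 other scalings, of which 3 cannot change a ratio within a library. The shift of replicates 4 and 5 was not examined in this way, because the gap is taken for 1 library at a time.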

How the results depend on the processing

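The number of proteasome genes detected, 40, was 39 to 40 with each library left out, 39 at over 1 TPM or in every library, and 33 at over 1 TPM in every library. The median level over all 41 genes, 79.1 rescaled TPM, was 14.4 in TPM as deposited, 16.7 after median-centring, 15.5 after quantile normalization and 86.9 with ribosomal protein genes left out of the total, where the scale itself differs, and 77.4 to 81.1 without each library. The median CV of the proteasome genes, 0.218, was 0.599, 0.354 and 0.255 under the first 3 of these scalings, beside 0.68, 0.278 and 0.25 for all genes (a comparison added after seeing the data), 0.116 without replicates 4 and 5, and 0.189 to 0.244 without each library. That of the 26S subunits, 0.21, was 0.585, 0.362 and 0.252, then 0.11, and 0.179 to 0.229. The count of genes higher in replicates 4 and 5, 16, became 0 in TPM as deposited, 31 after median-centring and 30 after quantile normalization, and the count of lower genes, 6, became 39 in TPM as deposited and 3 after median-centring. Without each library the counts were 16 to 21 and 6 to 8, beside 13.4% to 17.9% and 49.8% to 57.2% of all genes. The count of 21 and the share of 17.9% both came without replicate 4, where only replicate 5 had to lie above the rest. Leaving out each library for these counts was a choice made after seeing the data. So were that of 33 above and the PSME1 to PSME2 ratio. The mean PSMB10 to PSMB7 ratio, 0.201, was 0.174 to 0.215 without each library and 0.229 without replicates 4 and 5. The other alternatives gave 0.199 to 0.21. The mean PSME1 to PSME2 ratio, 3.02, was 2.66 to 3.4 without each library and 3.92 without replicates 4 and 5. Here the other alternatives gave 2.79 to 3.06. That mean joins unlike libraries, since the ratio was 1.3 and 1.15 in replicates 4 and 5 and 3.53 to 4.83 in the other 4. The planned PSMB8 to PSMB5 and PSMB9 to PSMB6 ratios were not run, since PSMB5 and PSMB6 have no ID in the name table. No paired analysis was possible because no result comes from a test. The precision rests on 6 libraries, and TPM show no depth.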
